A study of Mus musculus with 12 samples.

Results

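The integrin and laminin genes of the mouse were followed across 12 tumors. They were taken by their symbols alone: every gene of the expression table named as an integrin alpha chain (Itga followed by a letter or number), an integrin beta chain (Itgb1 to Itgb8) or a laminin alpha, beta or gamma chain (Lama, Lamb or Lamc with a number). These were 37 of the 18211 genes measured, 26 for integrins and 11 for laminins, and 33 of them passed the filter on low counts that left 13563 genes for testing. The 8 genes of integrins known from leukocytes (Itgal, Itgam, Itgax, Itgae, Itgad, Itga4, Itgb2 and Itgb7) are described apart from the other 18. Which cells made their RNA in these tumors was not tested.

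The tumors grew under the skin of female C57BL/6 mice, bought at 5 weeks of age, from MC38, a mouse colorectal adenocarcinoma line that is syngeneic to this strain, so that transcripts of tumor and host cells map to the same genome and each library is a mixture of both. Mice were grouped on day 7 after the cells were given, and 3 tumors of each of 4 groups were sequenced. CK tumors were from mice given vehicle alone. PB-020, an inhibitor of the type 1 receptor for insulin-like growth factor, was dosed orally at 50 mg/kg each day. The anti-PD-1 antibody RMP1-14, which blocks an inhibitory receptor of T cells, was injected into the peritoneum at 200 μg per mouse on days 9, 12, 15 and 18, and the group labelled PB-020+anti-PD-1, here the PB-020/anti-PD-1 combination, received both agents at these doses. The labels do not state that the 3 tumors of a group came from separate mice, so the p-values measure the spread between these tumors.

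Integrins are cell surface receptors made of an alpha and a beta chain, which tie the cytoskeleton to matrix proteins or to ligands on other cells and signal in both directions. Laminins are secreted trimers of an alpha, a beta and a gamma chain that assemble into basement membranes, the thin sheets under epithelia and endothelia and around muscle fibers, where several integrins bind them. The beta 2 and beta 7 integrins are made by leukocytes, which use them to adhere to vessel walls, to other cells and, for alpha E beta 7, to E-cadherin on epithelial cells.

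Depth, as the sum of expected counts, lay between 16545394 and 17217035 in the 12 libraries. Several libraries stood apart in genes of other cell types. In anti-PD-1 tumor 1 the 12 skeletal muscle markers summed to 633 FPKM, against 15.01 to 77.9 in the other 11 libraries, and the 14 T cell markers summed to 92.8 FPKM, the highest of the series. In CK tumor 3 the 8 neutrophil markers summed to 413 FPKM, against 6.07 to 33.4 in the others, and the 6 adipocyte markers to 112 FPKM. The 9 markers of intestinal epithelium, from which the line derives by its label, summed to 7.28 to 11.2 FPKM in the 12 libraries, and Epcam did not exceed 0.54 FPKM nor Krt8 and Krt18 0.14 FPKM. In bulk tumor RNA, fewer cells of a type and less RNA per cell cannot be told apart.

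Levels spanned several orders of magnitude, as the plot of FPKM (fragments per kilobase of transcript, scaled to the library total) in CK tumors shows. Itgb1, the beta chain shared by most matrix-binding integrins, stood first at 261 ± 3.81 FPKM in CK tumors (SD, n = 3). Next among the integrins, by the mean of the 4 group means, were Itgb7 at 73.3 FPKM, Itgb5 at 56.7, Itga5 (the fibronectin receptor alpha chain) at 48.2 and Itgb4 (the hemidesmosome beta chain) at 38.8. In CK tumors the order of Itgb7 and Itgb5 was turned, with Itgb5 at 64.5 ± 3.53 and Itgb7 at 44.4 ± 9.06 FPKM, and there the ranges of Itgb7 (34.4 to 52.2) and Itga5 (45.7 to 48.5) overlapped.

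Among the laminins, Lamb1 measured 65.6 FPKM, Lamc1 52.7, Lamb2 18.6 and Lama5 8.78 FPKM. In CK tumors the ranges of Lamb2 (19.7 to 21.3) and Lama5 (7.86 to 9.49) did not overlap. Alpha chains were scarcer than beta chains: the summed laminin alpha chains reached 13.3 to 20.1 FPKM in the 12 libraries, against 66.1 to 109 for the beta chains. No member was at 0 counts in every library, but Itgad, Itgb6, Lama1 and Lamc3 did not exceed 29 counts in any library and were not tested. Itgad, the alpha D chain of the beta 2 family, had 0 to 2 counts in each library.

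**Figure D1:**
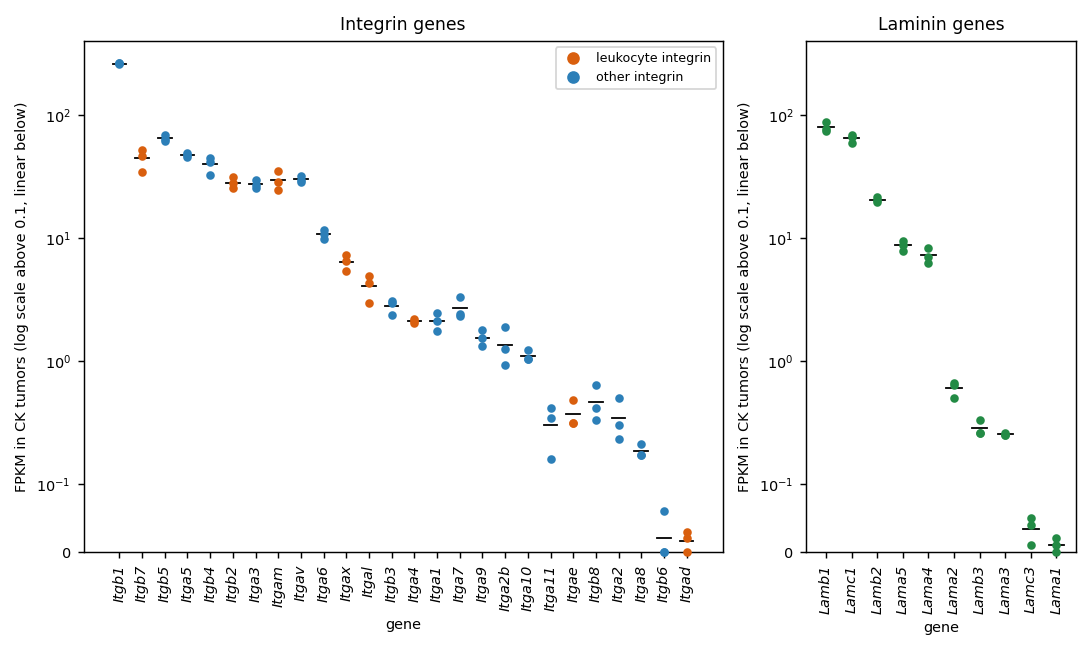
FPKM of integrin genes (left) and laminin genes (right) in the 3 CK tumors, on a log axis that turns linear below 0.1; points are tumors, bars are their means, and genes are ordered by the mean of the 4 group means. Itgb1 lay between 256.8 and 264.2 FPKM, and Lamb1 and Lamc1 between 59.0 and 87.0 FPKM.

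Of the 33 genes tested, 0 passed an adjusted p of 0.05 (edgeR's quasi-likelihood test, adjusted by Benjamini-Hochberg over all genes tested) in PB-020 tumors, where 0% of all genes did. In anti-PD-1 tumors 1 rose and 3 fell, which is 12.1% of the members tested against 8.26% of all genes. In PB-020/anti-PD-1 tumors 2 rose and 7 fell, 27.3% of the members tested against 17.9% of all genes. The members were also counted by whether the FPKM of the 3 treated tumors all lay above or all below those of the 3 CK tumors. This held for 5 members in PB-020 tumors, 13 in anti-PD-1 tumors and 19 in combination tumors, or 15.2%, 39.4% and 57.6% of those tested, beside 14.9%, 29% and 40.4% of all genes.

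Of the 7 leukocyte integrins tested, Itgb7 alone passed in each group given anti-PD-1. This is 14.3% of the class, beside 8.26% of all genes in anti-PD-1 and 17.9% in combination tumors. All 7 that were tested had a log2 fold change above 0 in anti-PD-1 tumors and in combination tumors, with medians of 0.54 and 0.49 against 0.00047 and -0.0026 over all genes tested. Leaving out 1 library took Itga4 in anti-PD-1 tumors to -0.14 and Itgam in combination tumors to -0.06. In PB-020 tumors 3 of the 7 were above 0 and the median was -0.09. Their summed FPKM was 115 ± 7.45 in CK, 125 ± 6.20 in PB-020, 194 ± 43.6 after anti-PD-1 and 180 ± 8.16 in combination tumors (SD, n = 3 each). Itgb7 alone gave 44.4 ± 9.06, 59.5 ± 1.87, 96.2 ± 14.1 and 93.0 ± 7.19 FPKM of these sums.

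Itgb7 encodes the beta 7 chain, which pairs with alpha 4 on gut-homing lymphocytes and with alpha E on T cells that reside in epithelia. The gene (NCBI gene 16421, chr15:102215994-102233405, minus strand, GRCm38.p6) measured 52.2, 46.5 and 34.4 FPKM in the CK tumors, 59.0, 61.6 and 57.9 in PB-020, 107, 80.4 and 101 in anti-PD-1, and 91.5, 86.7 and 101 in combination tumors. The 3 tumors of each treated group lay above the 3 CK tumors, and the 6 tumors given anti-PD-1 lay above the 6 that were not. Against CK it rose 2.19-fold in anti-PD-1 tumors (log2 fold change 1.13, SE 0.14, edgeR adjusted p = 0.0067) and 2.12-fold in combination tumors (1.08, SE 0.14, edgeR adjusted p = 0.00197), and against PB-020 it rose 1.56-fold in combination tumors (0.64, SE 0.14, edgeR adjusted p = 0.0366). In PB-020 tumors the log2 difference from CK was 0.44, with an edgeR adjusted p of 0.874. The p before adjustment was 0.00898. In a fit of the anti-PD-1 and CK tumors alone, the adjusted p in anti-PD-1 tumors was 0.0578, and the call against PB-020 was lost in 6 of 22 alternatives, each without a PB-020 or a combination tumor.

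As a share of the beta chain RNA, Itgb7 made up 10.03 ± 1.82% of the summed FPKM of the beta chains in CK, 13.2 ± 0.616% in PB-020, 21.0 ± 2.65% after anti-PD-1 and 20.3 ± 1.62% in combination tumors (SD, n = 3), while the share of Itgb1 was 59.2 ± 0.839%, 58.0 ± 1.31%, 48.1 ± 5.26% and 51.7 ± 2.75%. These shares were not tested. The T cell markers moved in the same direction: their summed FPKM was 16.9 to 23.1 in CK, 24.6 to 31.3 in PB-020, 38.5 to 92.8 after anti-PD-1 and 45.5 to 71.6 in combination tumors, with 11 and 12 of 14 past the test in the groups given anti-PD-1. Their part in the result was not tested. In each of the 12 libraries the FPKM of Itgb7 exceeded the sum of the 14 T cell markers.

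The partners of beta 7 were far less abundant than Itgb7 itself, by 14.6 to 47.8 times when Itgae and Itga4 were summed. Itgae, the alpha E chain, measured 0.48, 0.31 and 0.31 FPKM in CK, 0.58, 0.38 and 0.24 in PB-020, 0.66, 0.52 and 0.39 in anti-PD-1, and 0.48, 0.79 and 0.54 in combination tumors, from 16 to 49 counts per library. The groups overlapped, and the log2 differences from CK were 0.54 in anti-PD-1 and 0.75 in combination tumors (edgeR adjusted p = 0.352 and 0.148). Itga4, the alpha 4 chain that binds Vcam1 and fibronectin, measured 2.17, 2.11 and 2.04 FPKM in CK, 1.85, 2.08 and 1.88 in PB-020, 4.22, 2.04 and 1.72 in anti-PD-1, and 2.47, 2.78 and 2.63 in combination tumors. Anti-PD-1 tumor 1 alone lay above CK in its group, and the log2 difference of 0.35 from CK became -0.14 without that tumor (edgeR adjusted p = 0.477, and 0.171 to 0.612 over the alternatives). The combination tumors all lay above CK, by 0.34 on the log2 scale with an edgeR adjusted p of 0.397. That p ranged from 0.0162 to 0.562 over the alternatives, with the lowest when anti-PD-1 tumor 1 was left out. The exons of Itga4 share 1124 of 13978 bases with a GENCODE gene on the other strand. Its expected counts were not whole numbers in any library, so its count is uncertain.

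The beta 2 family holds the classical adhesion receptors of leukocytes: Itgb2 is the shared beta chain, and Itgal, Itgam and Itgax are the alpha chains of LFA-1 on lymphocytes, Mac-1 on myeloid cells and CD11c on dendritic cells and macrophages. Itgal measured 4.26, 2.96 and 4.90 FPKM in CK, 3.67, 3.75 and 3.44 in PB-020, 11.8, 5.15 and 6.36 in anti-PD-1, and 6.18, 7.24 and 7.32 in combination tumors. Every tumor given anti-PD-1 lay above every tumor that was not, with log2 differences from CK of 0.96 and 0.80 that missed the threshold (edgeR adjusted p = 0.0642 and 0.0776). Itgb2 measured 28.0, 25.3 and 31.1 FPKM in CK, 27.1, 28.4 and 28.5 in PB-020, 65.9, 30.2 and 38.7 in anti-PD-1, and 39.5, 38.5 and 39.2 in combination tumors. The combination tumors lay close together and above CK (log2 difference 0.49, edgeR adjusted p = 0.152), and anti-PD-1 tumor 2 fell within the CK range.

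These misses depended on single libraries and on the fit. With anti-PD-1 tumor 1 left out, both genes passed in combination tumors (edgeR adjusted p = 0.00358 for Itgal and 0.00167 for Itgb2), and with anti-PD-1 tumor 2 left out both passed in both groups. DESeq2 called both genes in both groups. Over the alternatives the adjusted p of Itgal ran from 0.00219 to 0.21 in anti-PD-1 and from 0.00118 to 0.223 in combination tumors, and that of Itgb2 from 0.00567 to 0.253 and from 0.000893 to 0.344.

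The myeloid alpha chains differed less between groups. Itgam measured 28.4, 24.4 and 34.9 FPKM in CK, 21.9, 31.8 and 27.6 in PB-020, 41.7, 29.0 and 32.0 in anti-PD-1, and 30.2, 29.2 and 30.5 in combination tumors. The groups overlapped, and the 95% interval of its log2 difference between combination and CK ran from -0.30 to 0.42. Its exons share 3450 of 5024 bases with a readthrough model in the GENCODE annotation. Whether the quantification used that model is not known, so its count could be affected, though its expected counts were whole numbers in each library. Itgax measured 6.44, 5.41 and 7.29 FPKM in CK, 6.27, 4.39 and 4.05 in PB-020, 8.75, 6.67 and 7.31 in anti-PD-1, and 8.29, 7.30 and 7.60 in combination tumors.

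Itgax rose 1.57-fold in combination tumors against PB-020 (log2 fold change 0.65, SE 0.16, edgeR adjusted p = 0.0463), with all 3 combination tumors above the 3 PB-020 tumors. This call was lost in 11 of 22 alternatives, among them the fits without each PB-020 tumor and without each combination tumor, with an adjusted p of 0.159 at most. Against CK the difference of 0.30 did not pass (edgeR adjusted p = 0.194). The 9 macrophage markers summed to 780 to 1000 FPKM in CK and 870 to 998 in combination tumors, and by edgeR and DESeq2 0 of 9 passed the test in either group given anti-PD-1 (0 and 2 with p under 0.05 before adjustment).

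**Figure D2:**
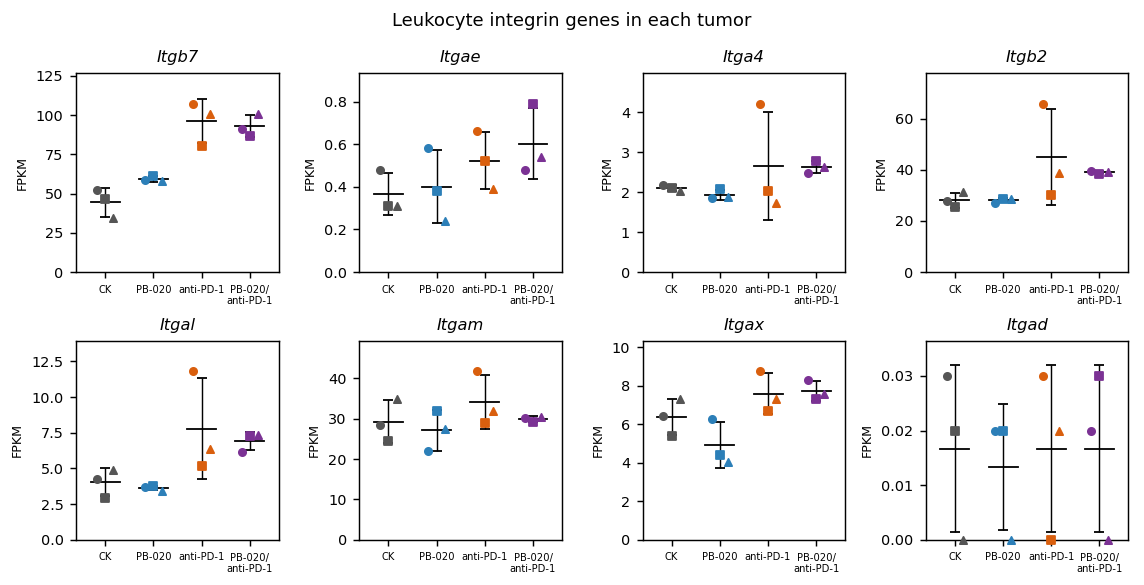
FPKM of the 8 leukocyte integrin genes in each tumor (linear axes from 0; circle, square and triangle are tumors 1, 2 and 3; bars are group means with SD, n = 3). The 6 tumors given anti-PD-1 lie above the other 6 for Itgb7 and Itgal, and anti-PD-1 tumor 1 is the highest point for Itgb7, Itgal, Itgb2, Itgam, Itgax and Itga4.

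Of the 9 laminin genes tested, the beta and gamma chains Lamb1, Lamb2 and Lamc1 had lower means in the treated groups. The beta chain Lamb3 went the other way in both groups given anti-PD-1, and the alpha chains passed no test. In all, 4 of the 9 had a log2 fold change above 0 in anti-PD-1 tumors and 3 in combination tumors. In combination tumors 3 of the 9 fell and 0 rose (33.3%, beside 17.9% of all genes called in either direction), and in anti-PD-1 tumors 2 fell and 0 rose (22.2%, beside 8.26%). The median log2 fold change of the 9 was -0.17 in PB-020, -0.09 after anti-PD-1 and -0.17 in combination tumors, beside -0.0038, 0.00047 and -0.0026 over all genes. Summed laminin FPKM was 205 ± 13.9 in CK, 186 ± 7.19 in PB-020, 170 ± 7.46 after anti-PD-1 and 158 ± 10.9 in combination tumors (SD, n = 3).

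Lamc1 encodes gamma 1, the gamma chain of most laminin trimers (NCBI gene 226519, chr1:153218922-153332786, minus strand). It measured 59.0, 68.6 and 65.5 FPKM in CK, 57.9, 54.1 and 54.3 in PB-020, 50.2, 52.2 and 44.1 in anti-PD-1, and 42.4, 38.9 and 45.8 in combination tumors. All 9 treated tumors lay below the 3 CK tumors, and the combination tumors lay below the PB-020 tumors. Against CK it fell in anti-PD-1 tumors (log2 fold change -0.38, SE 0.08, edgeR adjusted p = 0.0181) and in combination tumors (-0.59, SE 0.08, edgeR adjusted p = 0.00182), and it fell in combination against PB-020 tumors (-0.39, SE 0.08, edgeR adjusted p = 0.0308). In PB-020 tumors the log2 difference from CK was -0.19, with a p of 0.035 before adjustment and an edgeR adjusted p of 0.874.

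Lamb1 encodes beta 1, which pairs with gamma 1 (NCBI gene 16777, chr12:31265146-31329644, plus strand). Its values were 73.7, 87.0 and 77.2 FPKM in CK, 70.8, 74.9 and 62.4 in PB-020, 56.6, 61.0 and 55.5 in anti-PD-1, and 54.9, 49.98 and 63.5 in combination tumors. The 6 tumors given anti-PD-1 lay below CK, and the PB-020 tumors overlapped CK. The gene fell in anti-PD-1 (log2 fold change -0.44, SE 0.10, edgeR adjusted p = 0.0187) and in combination tumors (-0.48, SE 0.10, edgeR adjusted p = 0.00676).

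Lamb2 encodes beta 2, which replaces beta 1 at vessels and at the junctions of nerve and muscle (NCBI gene 16779, chr9:108479847-108490530, plus strand). It measured 20.4, 21.3 and 19.7 FPKM in CK, 19.4, 19.6 and 19.1 in PB-020, 18.4, 19.1 and 17.2 in anti-PD-1, and 16.1, 15.7 and 17.8 in combination tumors. Every treated tumor lay below CK, and the gene fell in combination tumors by 0.29 on the log2 scale (SE 0.06, edgeR adjusted p = 0.00935), while in anti-PD-1 tumors the difference of -0.15 missed the threshold at 0.149. Without CK tumor 2 the p in combination tumors was 0.0505, and it was under 0.05 in the other alternatives. For Lamc1 and Lamb1 the call in combination tumors held in all 22 alternatives. Their calls in anti-PD-1 tumors were lost in 3 of 22 alternatives for Lamc1 and in 4 for Lamb1, with adjusted p up to 0.0875 and 0.0929. Among these were the fits without CK tumor 2, without anti-PD-1 tumor 3 and of these groups alone.

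The other laminin chains passed no test. The alpha chains Lama5 and Lama4, found in vessel walls, measured 8.71 ± 0.817 and 7.19 ± 0.999 FPKM in CK and 8.51 ± 0.8002 and 5.73 ± 0.631 in combination tumors (SD, n = 3). Lama3 and Lamb3, chains of epithelial laminin, did not exceed 0.35 and 1.01 FPKM in any tumor. Lamb3 measured 0.33, 0.26 and 0.26 FPKM in CK, 0.18, 0.14 and 0.32 in PB-020, 1.01, 0.29 and 0.66 in anti-PD-1, and 0.64, 0.44 and 0.41 in combination tumors. Its log2 differences from CK were 1.22 in anti-PD-1 and 0.82 in combination tumors (edgeR adjusted p = 0.0870 and 0.192). Against PB-020 the combination tumors were higher by 1.21 (edgeR adjusted p = 0.127). Lama2, the alpha chain of muscle fibers, ran from 0.44 to 1.20 FPKM.

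Promoters were matched in RefSeq for 23 of the 37 members, with 26 starts. Those of the raised Itgb7 and of the lowered laminin chains with an entry, Lamb1 and Lamb2, are shown as examples of members that rose and that fell, though other members fell by more, and those of other called members are not shown. Each runs from 250 bases before to 50 after a listed start on GRCm38.p6, 5′ to 3′ on the gene's strand. The stretch of Itgb7 lies wholly inside the gene interval given above, and not at its 5′ end. Itgb7 lies at chr15:102231886-102232185 (minus), Lamb1 at chr12:31265043-31265342 (plus) and Lamb2 at chr9:108479612-108479911 (plus). Capitals mark the GC box GGGCGG and the PU.1 core GAGGAA, on either strand.
Itgb7: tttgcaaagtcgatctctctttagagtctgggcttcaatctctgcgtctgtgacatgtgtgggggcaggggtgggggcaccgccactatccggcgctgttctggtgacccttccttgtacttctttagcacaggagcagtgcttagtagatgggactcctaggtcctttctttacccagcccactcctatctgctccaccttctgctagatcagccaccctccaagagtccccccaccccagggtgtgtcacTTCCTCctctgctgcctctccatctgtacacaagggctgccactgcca
Lamb1: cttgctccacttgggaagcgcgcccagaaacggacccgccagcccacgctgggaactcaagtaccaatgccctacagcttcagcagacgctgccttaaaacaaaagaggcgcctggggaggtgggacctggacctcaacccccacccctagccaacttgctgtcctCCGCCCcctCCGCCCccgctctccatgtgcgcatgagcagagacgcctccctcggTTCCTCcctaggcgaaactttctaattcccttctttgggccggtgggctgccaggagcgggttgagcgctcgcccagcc
Lamb2: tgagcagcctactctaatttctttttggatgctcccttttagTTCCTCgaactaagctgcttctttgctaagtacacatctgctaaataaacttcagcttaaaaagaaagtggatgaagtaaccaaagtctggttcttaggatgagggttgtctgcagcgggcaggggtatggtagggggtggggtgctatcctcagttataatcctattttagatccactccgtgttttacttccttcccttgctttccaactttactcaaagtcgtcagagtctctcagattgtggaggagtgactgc
The raised Itgb7 and the lowered Lamb1 and Lamb2 each hold 1 PU.1 core, and Lamb1 holds 2 GC boxes.

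In all, 9 motifs were searched on both strands, and these matches are a description of the letters. The GC box was in 12 of the 26 member promoters and in 35.7% of all 32851 promoters, and the PU.1 core was in 14 of 26 and in 28.3%. The RUNX core TGTGGT was in 3 of 26 (16.8% of all), the ETS motif CCGGAA in 2 (14.9%) and the AP-1 motif TGACTCA in 2 (5.2%). The TATA box TATAAA was in 0 of 26 and in 13.6% of all, the E-box CACGTG in 0 and 7.2%, and the SMAD palindrome GTCTAGAC in 0 and 0.2%. The NF-κB motif was in 0 of 26 and in 0.2% of all. The matches marked above do not overlap each other.

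Among the 17 other integrin genes tested, 5 passed in combination tumors, 1 up and 4 down (29.4%, beside 17.9% of all genes), and 1 passed in anti-PD-1 tumors (5.88%, beside 8.26%). Their median log2 fold change was -0.10 in PB-020, -0.01 after anti-PD-1 and -0.12 in combination tumors. Summed FPKM of this class was 493 ± 10.1 in CK and 456 ± 26.8 in combination tumors (SD, n = 3).

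Of the laminin receptors, Itga3 rose and Itga7 fell. Itga3 encodes alpha 3, an epithelial receptor for laminins (NCBI gene 16400, chr11:95044475-95076844, minus strand), and measured 29.6, 26.8 and 25.6 FPKM in CK, 30.7, 28.5 and 24.9 in PB-020, 39.2, 30.9 and 36.2 in anti-PD-1, and 41.0, 31.0 and 37.4 in combination tumors. The 6 tumors given anti-PD-1 lay above the 6 that were not, and the gene rose 1.35-fold in combination tumors (log2 fold change 0.43, SE 0.11, edgeR adjusted p = 0.0229), while 0.39 in anti-PD-1 tumors missed the threshold at 0.0529. The combination call was lost without CK tumor 2, CK tumor 3, or combination tumor 1 or 3 (adjusted p up to 0.0983). The 8 keratinocyte markers summed to 79.0 to 119 FPKM in CK and 109 to 150 in PB-020 tumors. After anti-PD-1 they summed to 132 to 184, and in combination tumors to 167 to 216 FPKM, most of it Krt14. Of 5 tested, 1 rose in each group given anti-PD-1, and their median log2 fold changes were -1.57 and 1.60. Their part in the Itga3 values was not tested.

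Itga7 encodes alpha 7, the laminin receptor of muscle (NCBI gene 16404, chr10:128933421-128958286, plus strand). It measured 3.28, 2.32 and 2.39 FPKM in CK, 2.16, 1.35 and 1.84 in PB-020, 1.91, 1.49 and 1.08 in anti-PD-1, and 1.57, 1.31 and 1.61 in combination tumors. All 9 treated tumors lay below CK, and the gene fell in anti-PD-1 (log2 fold change -0.82, SE 0.22, edgeR adjusted p = 0.0363) and combination tumors (-0.80, SE 0.22, edgeR adjusted p = 0.0237). The anti-PD-1 call was lost in 7 of 22 alternatives and the combination call in 4, among them leaving out CK tumor 1. The skeletal muscle markers beside it summed to 26.9 to 75.9 FPKM in CK, 47.9 to 73.5 in PB-020, 15.01 to 633 after anti-PD-1 and 18.8 to 35.1 in combination tumors, and their part in the result was not tested. Itga6, which pairs with beta 1 or beta 4 as a laminin receptor, was 10.7 ± 0.896 FPKM in CK and 8.85 ± 0.952 in combination tumors (edgeR adjusted p = 0.106).

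Of the matrix receptors, Itgb5 fell. It encodes beta 5, which pairs with alpha V to bind vitronectin (NCBI gene 16419, chr16:33829665-33949338, plus strand), and measured 61.8, 63.3 and 68.5 FPKM in CK, 57.5, 62.5 and 57.7 in PB-020, 51.6, 60.7 and 50.8 in anti-PD-1, and 48.3, 45.5 and 52.1 in combination tumors. The 6 tumors given anti-PD-1 lay below CK, and the PB-020 tumors overlapped CK. The gene fell by 0.39 on the log2 scale in combination tumors (SE 0.08, edgeR adjusted p = 0.00676), a call that held in all 22 alternatives, and the difference of -0.23 in anti-PD-1 tumors had an adjusted p of 0.0842. Itgav, its partner, was 29.9 ± 1.87 FPKM in CK and 29.1 ± 1.53 in combination tumors (SD, n = 3).

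The collagen and platelet receptors that passed the test were low in level. Itga10, an alpha chain that binds collagen in cartilage, measured 1.04, 1.23 and 1.03 FPKM in CK, 1.06, 0.58 and 1.01 in PB-020, 0.66, 0.80 and 0.57 in anti-PD-1, and 0.77, 0.52 and 0.65 in combination tumors. It fell in combination tumors (log2 fold change -0.75, SE 0.24, edgeR adjusted p = 0.0468), but the call was lost in 12 of 22 alternatives. Its exons share 1739 of 5186 bases with another GENCODE gene model on the same strand. Whether the quantification used that model is not known, so its count could be affected, though its expected counts were whole numbers in each library. Itga2b, the alpha chain of the platelet fibrinogen receptor, measured 0.92, 1.24 and 1.89 FPKM in CK, 1.31, 1.22 and 1.38 in PB-020, 0.88, 1.08 and 0.92 in anti-PD-1, and 0.74, 0.84 and 0.79 in combination tumors. The combination tumors lay below CK (log2 fold change -0.74, SE 0.24, edgeR adjusted p = 0.0451), but without CK tumor 3, the highest, it was -0.43 with an adjusted p of 0.208, and the call was lost in 14 of 22 alternatives.

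The platelet and megakaryocyte markers beside Itga2b summed to 77.8 to 150 FPKM in CK and 68.8 to 102 in combination tumors, nearly all of it Pf4 (67.0 to 142 in the 12 libraries), while Gp6 did not exceed 0.06 FPKM. The 7 erythroid markers, mainly globins, summed to 679 to 1556 FPKM in CK, 449 to 1046 in PB-020, 101 to 380 after anti-PD-1 and 127 to 184 in combination tumors, and all 5 that were tested fell in both groups given anti-PD-1 (median log2 fold change -2.36 and -2.99). The part of these blood markers in the values of Itga2b and of the other lowered members was not tested. The beta chain Itgb1 was 262, 264 and 257 FPKM in CK, 244, 268 and 274 in PB-020, 196, 232 and 231 in anti-PD-1, and 253, 236 and 221 in combination tumors. Its values in both groups given anti-PD-1 lay below CK, with log2 differences of -0.23 and -0.12 that did not pass (edgeR adjusted p = 0.122 and 0.355).

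Some low members had large differences that missed the threshold. Itga11, a collagen receptor of fibroblasts, measured 0.41, 0.16 and 0.34 FPKM in CK, 0.22, 0.35 and 0.37 in PB-020, 3.14, 0.39 and 0.83 in anti-PD-1, and 0.91, 0.84 and 1.09 in combination tumors (log2 differences from CK of 2.26 and 1.66, edgeR adjusted p = 0.0642 and 0.112). Anti-PD-1 tumor 1 was the highest of the 12, and anti-PD-1 tumor 2 lay within the CK range. The fibroblast markers beside it summed to 1773 to 2414 FPKM in CK, 748 to 1512 in anti-PD-1 and 793 to 1163 in combination tumors. Col3a1 made up much of this sum, and the median log2 fold change of the 9 markers was 0.37 in anti-PD-1 and 0.24 in combination tumors. Their part in the Itga11 values was not tested. Itgb8, which activates latent TGF-β, was 0.46 ± 0.161 in CK and 0.237 ± 0.0850 FPKM in combination tumors (edgeR adjusted p = 0.109). The remaining integrin genes, Itga1, Itga2, Itga5, Itga8, Itga9, Itgb3 and Itgb4, had adjusted p-values of 0.251 to 0.989 in combination tumors.

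**Figure D3:**
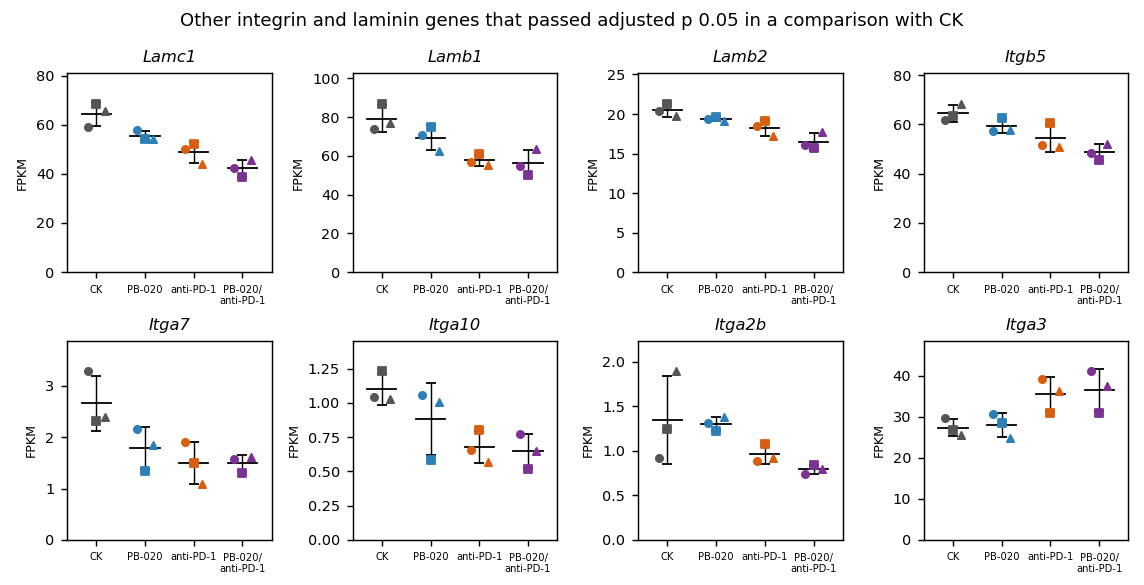
FPKM in each tumor of the 8 integrin and laminin genes beside Itgb7 that passed an adjusted p of 0.05 against CK (linear axes from 0; symbols are tumors 1 to 3; bars are group means with SD, n = 3). Lamc1, Lamb2 and Itga7 lie below CK in all 9 treated tumors, and Itga3 is the gene that lies higher in the groups given anti-PD-1.

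**Figure D4:**
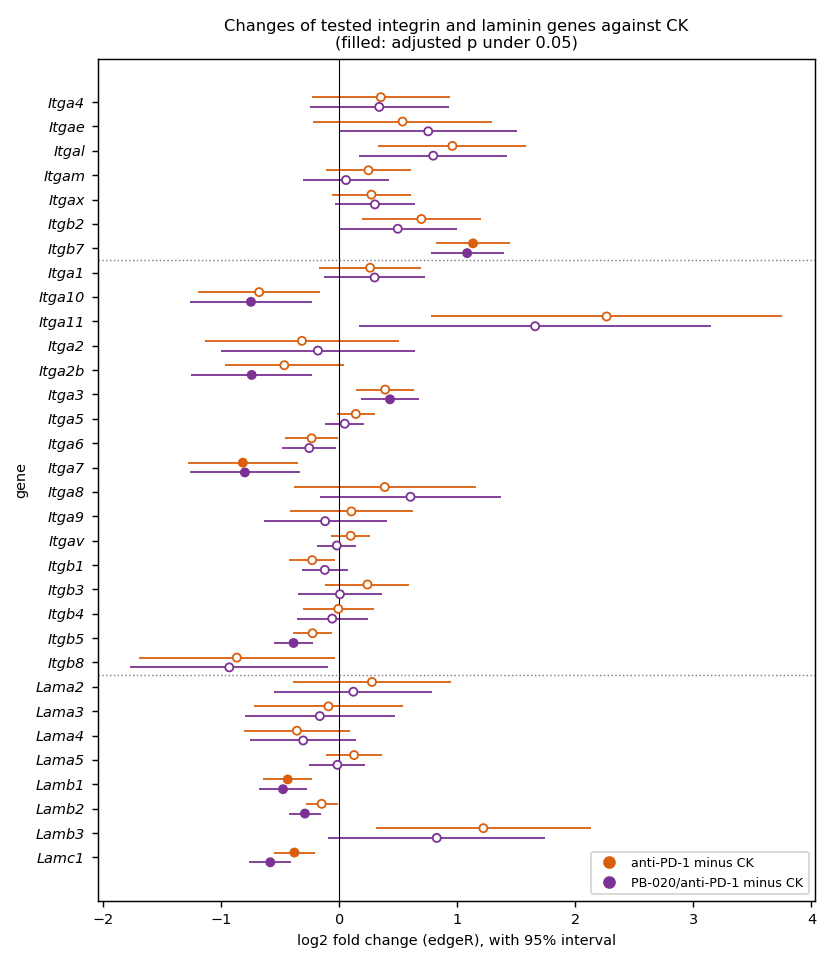
Log2 fold changes of tested integrin and laminin genes against CK in anti-PD-1 (orange) and combination tumors (purple), with 95% intervals; filled points passed an adjusted p of 0.05, and dotted lines part leukocyte integrins, other integrins and laminins. The 7 leukocyte integrins lie right of 0 in both groups, and Lamc1, Lamb1, Lamb2 and Itgb5 lie left of it.

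The comparisons with CK share the CK tumors, so likeness between them is no separate result. Tested directly, 0 of the 33 members differed between combination and anti-PD-1 tumors at an adjusted p of 0.05, where 0% of all genes did. The smallest p-values before adjustment were 0.0269 for Lamc1 (log2 difference -0.20) and 0.0435 for Lamb2 (-0.14), and these were the 2 members under 0.05. DESeq2 called 0 members here as well. For Itgb7 the log2 difference was -0.05, with overlapping tumors.

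Between combination and PB-020 tumors, which shows what the antibody added to PB-020, 3 members (9.09% of those tested, beside 3.35% of all genes) passed: Itgb7 and Itgax rose and Lamc1 fell. This count was 0 without PB-020 tumor 1 or 3 or without combination tumor 1 or 2, and 9 without anti-PD-1 tumor 1. The interaction, which asks whether the changes under each agent add up on the log2 scale, was past an adjusted p of 0.05 for 0 members and for 0% of all genes. Its smallest p before adjustment was that of Itgb7 at 0.0294, the 1 member under 0.05 (-0.49 on the log2 scale), and DESeq2 also called 0. In PB-020 tumors, 4 members had p under 0.05 before adjustment, namely Itgb7, Itga7, Lamc1 and Itgax, and DESeq2 called 0.

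Genes around the integrins were counted by role. Of 30 tested genes for integrin activation and adaptors, 4 rose and 6 fell in combination tumors, where 17.9% of all genes were called. Those that rose were Ptk2b, Rap1b, Skap1 and Cytip, of which Cytip went from 4.32 ± 0.591 to 7.85 ± 0.915 FPKM (SD, n = 3, log2 fold change 0.85) and Skap1 from 0.383 ± 0.115 to 1.15 ± 0.304 (1.54). Those that fell were Tln2, Fermt2, Parva, Vcl, Tns1 and Tns2, which tie integrins to actin at focal adhesions, of which Tns2 went from 52.3 ± 2.68 to 32.98 ± 1.94 FPKM (-0.64) and Vcl from 42.0 ± 2.77 to 33.1 ± 2.05 (-0.32). Other genes of the list did not pass in combination tumors, among them Fermt3, Apbb1ip, Ilk and Zyx (edgeR adjusted p = 0.694, 0.933, 0.321 and 0.725). In anti-PD-1 tumors, where 8.26% of all genes were called, 3 rose (Ptk2b, Src and Skap1) and 1 fell (Tns2).

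Of the ligands of leukocyte integrins, 11 of 14 listed were in the table, and 0 of 9 tested passed in edgeR in either group given anti-PD-1, with 3 and 2 under 0.05 before adjustment, while DESeq2 called 0 and 1. Icam1, the ligand of LFA-1, was 4.13 ± 1.75 FPKM in CK and 7.39 ± 1.67 in combination tumors (edgeR adjusted p = 0.143), and Vcam1, the ligand of alpha 4, was 89.98 ± 17.03 and 84.1 ± 1.43. Of 20 matrix ligands of the other integrins, 3 rose and 6 fell in combination tumors, beside 17.9% of all genes called. Col3a1 fell from 1349 ± 177 to 452 ± 78.0 FPKM (log2 fold change -1.56), Fn1 from 211 ± 36.0 to 122 ± 15.2 (-0.76), and Vtn, the ligand of alpha V beta 5, from 1.89 ± 0.805 to 0.510 ± 0.161 (-1.86). Fbn1, Tgfb3 and Adam9 fell as well, while Postn rose from 71.6 ± 13.0 to 179 ± 22.3 FPKM (1.34), as did Spp1 and Nov.

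Of 15 tested partners of laminins in basement membranes, 2 fell and 0 rose in combination tumors in edgeR, beside 17.9% of all genes called there. Hspg2, the heparan sulfate proteoglycan perlecan, went from 76.2 ± 6.63 to 52.1 ± 5.88 FPKM (log2 fold change -0.53, edgeR adjusted p = 0.00499), and Col18a1 from 36.5 ± 6.84 to 22.2 ± 1.74 (-0.70, edgeR adjusted p = 0.0157). DESeq2 called 6 of the 15 there, beside 2775 of 13563 genes, and 6 had p under 0.05 before adjustment in edgeR. In anti-PD-1 tumors 1 of the list fell in edgeR (Col18a1), and DESeq2 called 3. In PB-020 tumors 0 genes of the 4 lists passed in edgeR or DESeq2, with 1 to 3 of each list under 0.05 before adjustment. The endothelial markers, whose cells lay down basement membrane, summed to 57.8 to 87.6 FPKM in CK, 52.0 to 61.9 in PB-020, 46.6 to 75.4 after anti-PD-1 and 50.3 to 58.9 in combination tumors, and 1 of 9 fell in each group given anti-PD-1. Of the 9 fibroblast markers, 3 fell and 0 rose in each of these groups, while the median log2 fold change of the 9 was above 0 (0.37 and 0.24). The part of these cell types in the laminin values was not tested.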

How the data were processed

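Total RNA of 12 subcutaneous MC38 tumors was sequenced as 3 tumors in each of 4 groups, which were read from the sample labels. The authors aligned the reads with Bowtie2 to a reference genome (mm10 or hg19 in the methods, GRCm38.p6 in the submitters' processing notes, which also name HISAT), and quantified genes with RSEM. The annotation and tool versions are not given in the sources used here. The authors deposited expected counts (estimated, not normalized, 91.0% whole), FPKM (divided by effective length and library total) and TPM for each tumor. The deposited TPM entered no test, and 12 columns of group averages were not used.

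Expected counts were rounded to whole numbers in R 4.3.3. In edgeR 4.0.16, low genes were removed by filterByExpr at a minimum count of 10 and libraries were scaled by TMM, before fitting the robust quasi-likelihood model, with 4 group means over all 12 libraries. Tests were two-sided, p-values were adjusted by Benjamini-Hochberg over the 13563 genes tested, and a gene was called at an adjusted p under 0.05. The interaction is the log2 change from PB-020 to combination less the change from CK to anti-PD-1. The script was tested on simulated data with known changes.

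Named with values are the 8 leukocyte integrins, the members called in any comparison, the 5 integrins and 5 laminins highest in FPKM and members at 0 in every library. A few genes are not reported here by name, though counts and sums over the members include them. Other members are named so that they are accounted for, and Icam1 and Vcam1 were named after their values were seen. The members, pathway lists and marker lists were chosen with earlier results of these data known, and marker lists were written by hand.

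Alternatives were DESeq2 1.42.0, limma 3.58.1 on log2(FPKM + 1) and log2(FPKM + 0.1), no filter or a mean CPM of at least 1, scaling by library size or by RLE, a fit of the compared groups alone, a block for the replicate number, leaving out single libraries, and a fold over 1.5 with an unadjusted p under 0.05, the thresholds of the study's methods. No 2 libraries of a group agreed within sampling noise. Promoters and gene positions are from RefSeq, and strands and shared exon bases from GENCODE, both on GRCm38.p6.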

Additional observations from a re-analysis of the deposited data

How the results depend on the processing

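The numbers of integrin and laminin genes called depended on the fit and on single libraries. Against CK, anti-PD-1 tumors gave 4 calls, 10 with DESeq2, 0 in a fit of the 2 groups alone (3 of 13255 genes there, against 1120 of 13563), 8 with a fold over 1.5 and an unadjusted p under 0.05, and 1 to 11 with 1 library left out (1 without CK tumor 2 or anti-PD-1 tumor 3, 11 without anti-PD-1 tumor 2). Combination tumors gave 9 calls, 14 in a fit of the 2 groups alone and 4 to 13 with 1 library left out (4 without CK tumor 2, 5 without combination tumor 1). Combination against PB-020 gave 3 calls, 8 with DESeq2, 13 in a fit of the 2 groups alone, 7 with the fold threshold and 0 to 9 with 1 library left out, while calls over all genes fell from 455 to 0 without combination tumor 1 and to 1 without PB-020 tumor 1. Leaving out anti-PD-1 tumor 1 and CK tumor 3 together, an alternative chosen after seeing the data, gave 5, 12 and 11 calls in these comparisons. The other comparisons gave 0 in every alternative with the adjusted p.

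Direction turned for a few leukocyte integrins that passed no test in the comparison named. With 1 library left out, Itgal in PB-020 against CK ran from -0.31 to 0.012 (above 0 without CK tumor 3), Itgam from -0.22 to 0.046 (above 0 without CK tumor 3, and 0.038 without PB-020 tumor 1), Itgae from -0.17 (without PB-020 tumor 1) to 0.45, and Itgb2 from -0.053 (without CK tumor 2) to 0.085. Itga4 in anti-PD-1 tumors ran from -0.14 (without anti-PD-1 tumor 1) to 0.57, and Itgam in combination tumors from -0.058 (without CK tumor 2) to 0.20. Without both libraries, Itgal and Itgam in PB-020 tumors were 0.012 and 0.046 and Itga4 in anti-PD-1 tumors -0.17. Itgb2 in PB-020 tumors was -0.00041 and -0.00028 in limma with a pseudocount of 1 and 0.1, and -0.0053 with library size scaling. The causes were not tested.

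The labels give the groups the same replicate numbers and do not say what the numbers stand for. Of 18 pairs of same-numbered tumors 2 had correlated deviations over 0.1 (range -0.21 to 0.29), and 3 tumors correlated best with their own number. With 3 tumors a group, these correlations cannot decide whether same-numbered tumors share more than a number. With the number as a block, 5, 7 and 4 members were called in these comparisons, against 4, 9 and 3, and 0 in the others. With 3 tumors a group and low counts for Itgae, Itga10, Itga2b and Itga7, smaller changes of these genes were not detectable.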

Other observations

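Itgb2 reached 0.66 to 0.77 of the summed FPKM of its alpha chains (Itgal, Itgam, Itgax and Itgad) in CK tumors, 0.71 to 0.85 in PB-020, 0.74 to 1.06 after anti-PD-1 and 0.86 to 0.88 in combination tumors. The leukocyte alpha chains made up 25.2 ± 3.61% of the summed integrin alpha FPKM in CK, 24.1 ± 1.62% in PB-020, 27.6 ± 3.03% after anti-PD-1 and 26.9 ± 1.60% in combination tumors (SD, n = 3), and the leukocyte beta chains made up 16.4 ± 1.31%, 19.4 ± 0.691%, 30.8 ± 6.22% and 28.9 ± 1.76% of the summed beta FPKM. Within these beta shares Itgb7 alone held 10.03%, 13.2%, 21.0% and 20.3% of the summed beta FPKM. These ratios are descriptions and were not tested. In anti-PD-1 tumor 1, Lama1 reached 0.18 FPKM, its highest of the 12 libraries.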
